A study of Mus musculus with 6 samples.

Results

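The genes described here are 9 regulators of pluripotency, Pou5f1 (which encodes Oct4), Sox2, Nanog, Sall4, Zfp281, Utf1, Lin28a, Dppa2 and Dppa4, together with Fbxo15, a known target gene of Oct4 and Sox2. They were taken by name, and every feature annotated to one of them was used. The 10 genes have 11 features, because Sall4 has 2, out of 22180 genes and 23521 features with a single gene symbol. A feature is the set of probes that the array summarises for 1 transcript cluster.

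The cells were R1, a male mouse embryonic stem cell line from a cross of 129X1 with 129S1, grown on gelatin with fetal bovine serum and the cytokine LIF, which holds such cells in self-renewal. The AA2G group was kept for 3 days with 0.74 mM (250 ug/ml) ascorbic acid 2-glucose (AA2G), a vitamin C derivative from which cells release ascorbate. The untreated group was kept for the same time without it, in otherwise the same serum and LIF medium. Each group has 3 samples, described by the submitters as independent replicates, each on 1 Affymetrix Mouse Gene 2.0 ST array. All are from 1 cell line.

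Oct4 and Sox2 bind DNA side by side at a joined SOX and octamer element and switch on their own genes, Nanog and many others. Nanog and Sall4 join that circuit, and Zfp281 is a zinc finger protein that binds many of the same sites. Utf1 is a chromatin protein of undifferentiated cells, Lin28a is an RNA-binding protein that blocks maturation of the let-7 microRNAs, and Dppa2 and Dppa4 form a chromatin-bound pair. Fbxo15 encodes an F-box protein, a class of proteins that choose substrates for SCF ubiquitin ligases. It is used as a reporter of the pluripotent state, although mouse embryonic stem cells live without it.

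All values are log2 expression, and changes are AA2G minus untreated. Ranges and gaps were taken before rounding, so they can differ in the last digit from the printed levels. Array medians over all features lay between 5.064 and 5.096, and pairs of arrays correlated across features at r = 0.9936 to 0.996 within groups and 0.9919 to 0.9947 across them (features are not independent replicates). One linear model was fitted over all 23521 features with limma, and the threshold for a call was 0.05 after Benjamini-Hochberg adjustment. The arrays carry no detection calls, and levels of different features are not compared, because probes differ in brightness. Fewer expressing cells and less RNA per cell cannot be told apart in these bulk samples.

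The promoter windows of Nanog, Pou5f1 and Sox2 are shown first, because these are the genes of the core circuit and their start regions are where the motifs below were searched. Each runs from 250 bases before to 50 bases after a RefSeq start site (GRCm38.p6, plus strand, 5′ to 3′). Capitals mark a joined SOX and octamer element in Nanog, the octamer core in Sox2 and a nuclear receptor hexamer in Pou5f1.
Nanog, chr6:122707239-122707538: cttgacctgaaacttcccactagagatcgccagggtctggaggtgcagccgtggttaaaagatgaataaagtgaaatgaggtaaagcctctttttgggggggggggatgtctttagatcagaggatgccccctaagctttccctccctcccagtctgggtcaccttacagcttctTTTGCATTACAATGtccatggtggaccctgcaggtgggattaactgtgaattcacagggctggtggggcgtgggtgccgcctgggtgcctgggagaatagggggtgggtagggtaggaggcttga
Sox2, chr3:34649745-34650044: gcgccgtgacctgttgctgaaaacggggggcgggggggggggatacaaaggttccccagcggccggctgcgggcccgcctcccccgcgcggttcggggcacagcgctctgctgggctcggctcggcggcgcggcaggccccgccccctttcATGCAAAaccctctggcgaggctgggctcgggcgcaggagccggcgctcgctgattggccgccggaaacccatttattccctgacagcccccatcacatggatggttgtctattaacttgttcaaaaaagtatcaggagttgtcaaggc
Pou5f1, chr17:35505782-35506081: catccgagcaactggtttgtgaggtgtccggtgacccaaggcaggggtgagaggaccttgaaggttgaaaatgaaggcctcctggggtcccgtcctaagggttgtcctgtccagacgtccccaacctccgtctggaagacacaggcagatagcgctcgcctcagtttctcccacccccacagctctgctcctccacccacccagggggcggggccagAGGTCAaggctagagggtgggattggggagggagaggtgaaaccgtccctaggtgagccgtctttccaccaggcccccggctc
The table of windows covers 6 of the 10 genes in 8 windows, those of Pou5f1, Sox2, Nanog, Utf1, Lin28a and Zfp281. The motifs were searched on both strands and may overlap each other. The joined element, spelled CATTGTNATGCAAA with N for any base, was found in both windows of Nanog and in 2 of all 32851 windows (0.00609%), which are those same windows. In the first Nanog window its letters run from base -75 to base -62 before the start site, on the minus strand. In the second window the same letters run from base -151 to base -138. Whether the 2 windows hold the same genomic copy was not tested. The octamer core ATGCAAA, which is contained in the joined element, was found in Nanog and Sox2 and in 4.63% of all windows. The full octamer ATGCAAAT was found in 0 of the 8 windows and in 1.74% of all. The SOX letters CATTGT were found in Nanog, Lin28a and the second Pou5f1 window and in 12.6% of all windows, and the receptor hexamer AGGTCA in Pou5f1, Nanog and Sox2 and in 16.3%. These matches describe letters in a window and were not tested as binding sites.

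Of the 11 features, 1 rose with AA2G, that of Fbxo15, 0 fell, and 10 did not pass. Over all tested features 0.608% were called higher and 0.153% lower. By unadjusted p (under 0.05), 1 of the 11 was higher and 2 were lower (Pou5f1 and Nanog), against 4.66% and 5.06% of all features. The AA2G and untreated arrays did not overlap for 3 of the 11, Fbxo15 above and Pou5f1 and Nanog below. Among all features 7.21% did not overlap with AA2G above and 8.48% with AA2G below. The median change was -0.09 over the 11 features and -0.007 over all features, with 8 of the 11 values negative against 52.3% of all features.

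**Figure D1:**
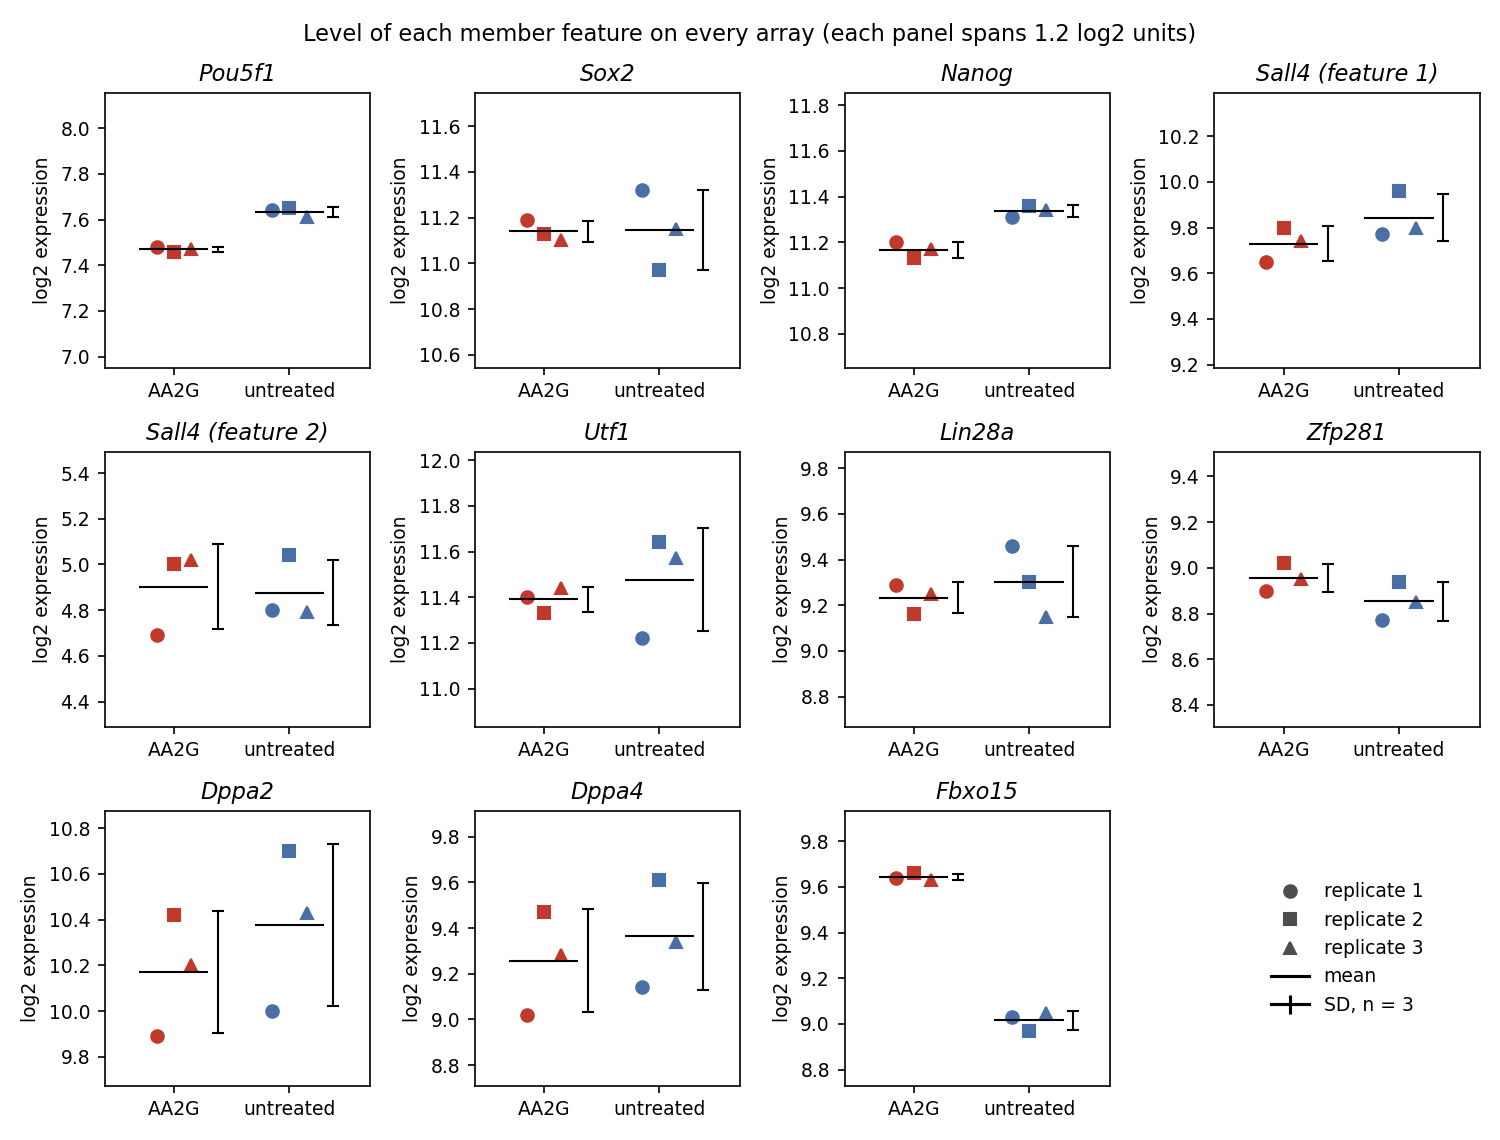
Log2 expression of each member feature on every array, AA2G in red and untreated in blue, with symbols for replicate numbers, lines for means and bars for SD (n = 3 each). Groups are apart for Fbxo15, Pou5f1 and Nanog, and Dppa2 and Dppa4 have wide spreads in both groups.

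Pou5f1 (Entrez Gene 18999, chromosome 17) had slightly lower values on all 3 AA2G arrays, a difference that did not pass over all features. Its levels were 7.48, 7.46 and 7.47 in AA2G cells, against 7.64, 7.65 and 7.61 in untreated cells. Before rounding, the 3 AA2G arrays lay within 0.01 of each other, the untreated ones within 0.04, and the gap between the groups was 0.14. The fitted change was -0.16 ± 0.07 (SE, n = 3 each), or 0.892-fold, with a 95% interval of -0.31 to -0.01 and a limma adjusted p of 0.455. The spread of this feature was among the smallest on the array: its pooled SD was 0.0156, against a median of 0.115 over all features, and 0.225% of features had a smaller one. Limma moves such small variances toward those of the other features, and with each feature's own variance the SE was 0.01 and the adjusted p was 0.102.

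An Oct4 pseudogene, Pou5f1-rs4 (chromosome 3), has its own feature, with 5.55, 5.29 and 5.55 in AA2G cells and 5.29, 5.43 and 5.44 in untreated cells. These groups overlapped (0.08 ± 0.10, limma adjusted p = 0.863). How far probes of either feature read both copies was not tested.

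Nanog (71950, chromosome 6), a homeodomain factor, had a pattern of the same size and sign. It stood at 11.20, 11.13 and 11.17 in AA2G cells, against 11.31, 11.36 and 11.34 in untreated cells. The lowest untreated array was 0.11 above the highest AA2G array. The change was -0.17 ± 0.07 (SE), or 0.887-fold, with a 95% interval of -0.33 to -0.02, and did not pass (limma adjusted p = 0.445).

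Sox2 (20674, chromosome 3), the partner of Oct4, was level between the groups. Its values were 11.19, 11.13 and 11.10 in AA2G cells and 11.32, 10.97 and 11.15 in untreated cells. The AA2G values all lay inside the untreated range. The change was -0.01 ± 0.10 (SE, limma adjusted p = 0.988), and the 95% interval of -0.23 to 0.22 spans folds of 0.85 to 1.16. Its sign turned without untreated replicate 1 (0.08) and without AA2G replicate 3 (0.01).

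Sall4 (99377, chromosome 2), a zinc finger factor that recruits the NuRD corepressor, has 2 features. The brighter one gave 9.65, 9.80 and 9.74 in AA2G cells and 9.77, 9.96 and 9.80 in untreated cells, and AA2G replicate 2 lay above untreated replicate 1. Its change was -0.11 ± 0.08 (SE, limma adjusted p = 0.746). The other feature lay between 4.69 and 5.04 on all arrays and gave 0.03 ± 0.11 (adjusted p = 0.972), so the 2 features disagreed in sign with neither past the threshold.

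Zfp281 (226442, chromosome 1) was the other brightly measured member with a positive value besides Fbxo15. Its levels were 8.90, 9.02 and 8.95 in AA2G cells and 8.77, 8.94 and 8.85 in untreated cells. The groups overlapped, with replicate 2 highest and replicate 1 lowest in both. The change was 0.10 ± 0.08 (SE, limma adjusted p = 0.751).

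Utf1 (22286, chromosome 7) varied more among untreated than among AA2G arrays. It stood at 11.40, 11.33 and 11.44 in AA2G cells, against 11.22, 11.64 and 11.57 in untreated cells. Untreated replicate 1 was the lowest of the 6 arrays and the other untreated arrays were the highest. The change was -0.09 ± 0.11 (SE, limma adjusted p = 0.87), and did not pass with any array left out. It was -0.22 without that array, but -0.01 without untreated replicate 2 and -0.04 without untreated replicate 3.

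Lin28a (83557, chromosome 4) gave 9.29, 9.16 and 9.25 in AA2G cells and 9.46, 9.30 and 9.15 in untreated cells. The range of the untreated arrays, 0.30 wide, covered that of the AA2G arrays. The change was -0.07 ± 0.09 (SE, limma adjusted p = 0.871), and its sign turned without untreated replicate 1 (0.01).

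Dppa2 (73703) and Dppa4 (73693) are neighbouring genes on chromosome 16 whose products work as a pair, and they were the members that varied most among replicates. Dppa2 stood at 9.89, 10.42 and 10.20 in AA2G cells, against 10, 10.70 and 10.43 in untreated cells. Dppa4 stood at 9.02, 9.47 and 9.28 in AA2G cells, against 9.14, 9.61 and 9.34 in untreated cells. For both genes replicate 1 was the lowest array and replicate 2 the highest in either group. The spread within a group was 0.53 and 0.70 for Dppa2 in AA2G and untreated cells and 0.45 and 0.46 for Dppa4, larger than their changes. The change of Dppa2 was -0.21 ± 0.19 (SE, limma adjusted p = 0.807). That of Dppa4 was -0.11 ± 0.15 (adjusted p = 0.88), with the sign turned without AA2G replicate 1 (0.01) and without untreated replicate 2 (0.02). The 95% interval of Dppa2 reached from 0.639-fold to 1.18-fold, and leaving out an array shifted the value. Dropping untreated replicate 1 gave -0.39 and dropping AA2G replicate 2 gave -0.33, but it was -0.04 without untreated replicate 2 and -0.06 without AA2G replicate 1, and passed in none of these fits.

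The same order of replicate numbers in both groups was also seen for Zfp281 and the brighter Sall4 feature, 4 of the 11 features in all, against 25.3% of all features. What the replicate numbers share, if anything, is not given in the labels. With the replicate number as a block, the SE went from 0.19 to 0.07 for Dppa2 and from 0.15 to 0.06 for Dppa4. For Zfp281 and the brighter Sall4 feature it went from 0.08 to 0.06. The cause of the common order was not tested.

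Fbxo15 (50764, chromosome 18) rose with AA2G. It stood at 9.64, 9.66 and 9.63 in AA2G cells, against 9.03, 8.97 and 9.05 in untreated cells. Before rounding, the AA2G arrays lay within 0.02 of each other, and the lowest of them was 0.58 above the highest untreated array. The group means were 9.64 ± 0.01 in AA2G cells and 9.02 ± 0.04 in untreated cells (SD, n = 3 each). The fitted change was 0.63 ± 0.07 (SE), or 1.54-fold with a 95% interval of 1.39 to 1.72, at a limma adjusted p of 0.00625. By unadjusted p it ranked 49 among 23521 features, and by size 111 among the 143 called higher, whose median change was 0.89. Its call was kept in all 15 alternatives run, with adjusted p between 0.000541 and 0.0444.

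Fbxo15 and Pou5f1 thus had opposite signs, with Fbxo15 past the threshold and Pou5f1 not. Within each array the log2 value of Fbxo15 minus that of Pou5f1 was 2.16, 2.19 and 2.16 in AA2G cells, against 1.39, 1.32 and 1.44 in untreated cells. The mean of this difference was 0.79 higher with AA2G, a description without a test, since these genes were singled out for that contrast. The 95% intervals of the other 10 member features all ended below that of Fbxo15: their highest upper bound was 0.29, or 1.22-fold, and the lower bound of Fbxo15 was 0.47.

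**Figure D2:**
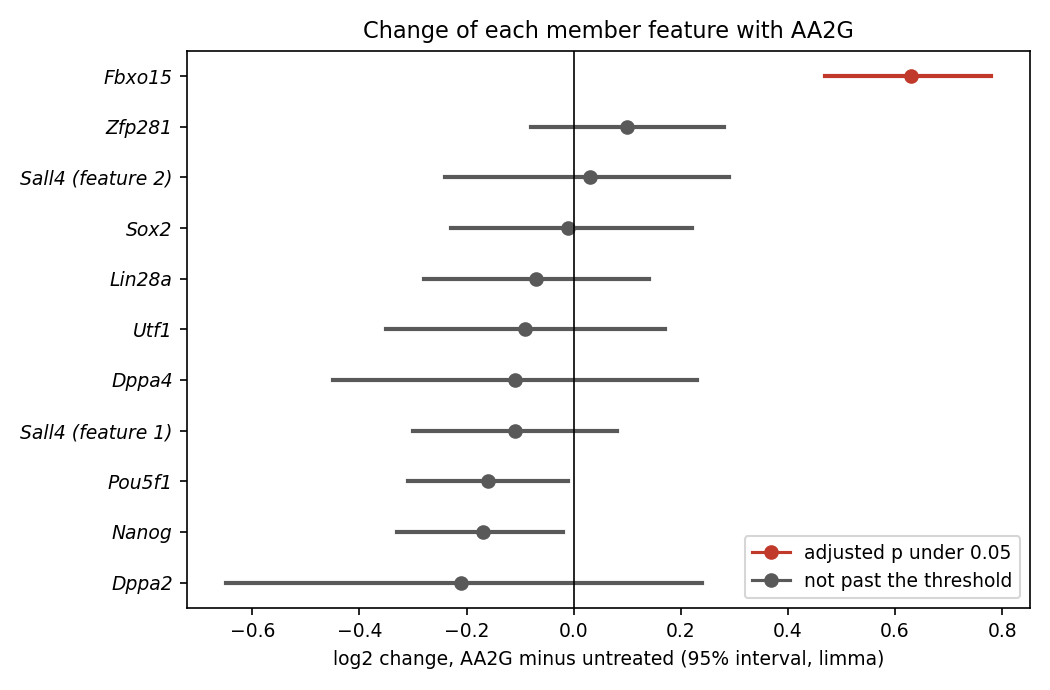
Log2 change of each member feature, AA2G minus untreated, with its 95% interval from limma (n = 3 each). Fbxo15 (0.63) lies apart from the other 10 features, whose values run from -0.21 for Dppa2 to 0.10 for Zfp281.

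The features with patterns most like Fbxo15 over the 6 arrays were found by Pearson correlation among 12899 features above a mean level of 4.99, leaving out predicted genes, Rik clones, small RNA genes and chemoreceptors. They were Morc1 (r = 0.999), M1ap (0.9987), Sohlh2 (0.9983), Rec114 (0.9969) and Psma8 (0.9957). All 6 arrays enter each r, so it is set mainly by the shift between the groups. Morc1 encodes an ATPase that male mouse germ cells need for transposon silencing, M1ap and Rec114 act in meiosis, Sohlh2 is a germ cell transcription factor, and Psma8 is a proteasome subunit of the testis.

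Each of these 5 rose, with a fitted change larger than that of Fbxo15. They were picked for following Fbxo15 over the same arrays. Their direction and their order of arrays therefore follow from the choice, and their p-values are not separate support. Morc1 stood at 9.13, 9.15 and 9.16 in AA2G cells, against 7.31, 7.01 and 7.33 in untreated cells, a change of 1.93 ± 0.10 (SE, limma adjusted p = 0.00021). Psma8 stood at 7.47, 7.34 and 7.41 in AA2G cells, against 6.37, 6.27 and 6.35 in untreated cells (1.08 ± 0.07, adjusted p = 0.000483). In these genes, as in Fbxo15, untreated replicate 2 was the lowest of the 6 arrays. M1ap rose by 0.95, Rec114 by 2.33 and Sohlh2 by 2.45 (adjusted p = 0.000833, 6.89e-05 and 2.25e-05, in that order). The call of Morc1 was lost with each feature's own variance (adjusted p = 0.0587), and the other 4 kept theirs in all 15 alternatives.

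The same search for Pou5f1 gave Utrn (r = 0.9969), Oplah (0.9964), Aqr (0.9947), Cask (0.9924) and Nav2 (0.992). Utrn encodes utrophin, Oplah an enzyme of glutathione turnover, Aqr a spliceosomal helicase, Cask a membrane scaffold and Nav2 a neuron navigator. All had larger negative values than Pou5f1, from -0.26 for Aqr to -0.49 for Cask. Their sign follows from the choice here too, and their p-values are likewise not separate support. Oplah (-0.46 ± 0.07) and Cask (-0.49 ± 0.08) passed in limma (adjusted p = 0.0219 and 0.029), and Utrn (-0.33), Aqr and Nav2 (-0.36) did not. Both calls were lost with any 1 array left out, at adjusted p of 0.075 to 0.115 for Oplah and 0.0636 to 0.139 for Cask.

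**Figure D3:**
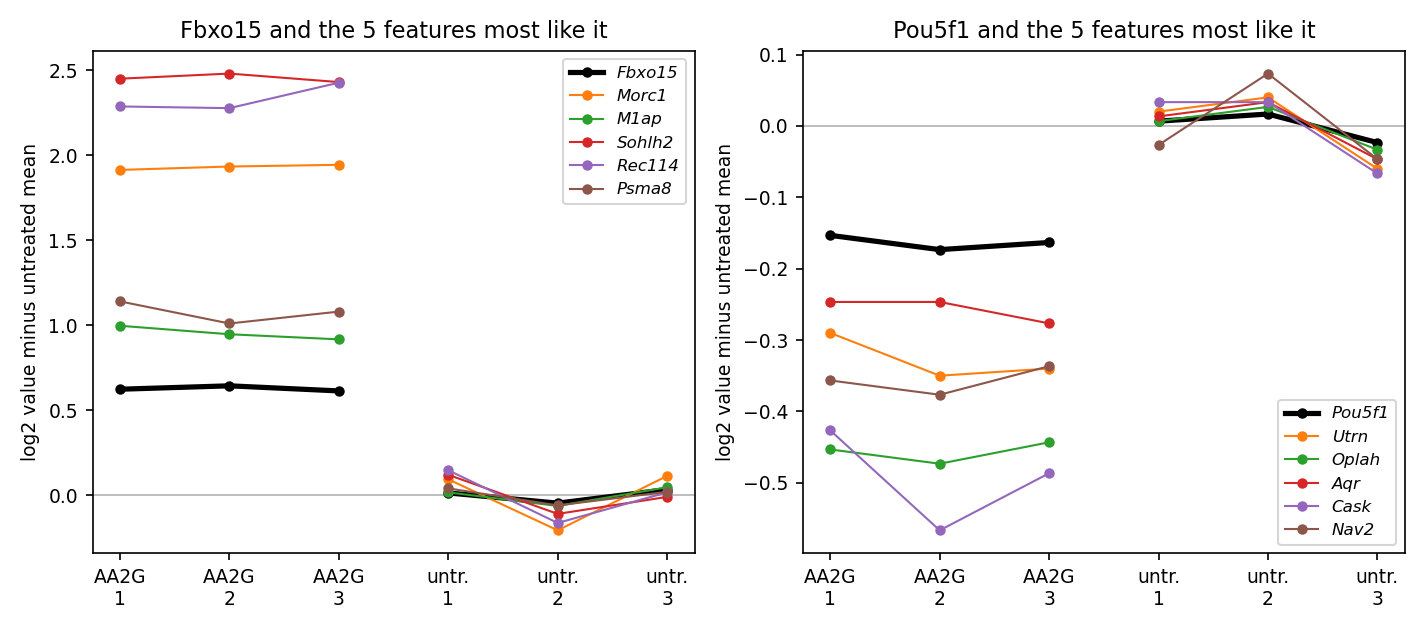
Log2 value minus the untreated mean on each of the 6 arrays for Fbxo15 (left) and Pou5f1 (right), thick black lines, and the 5 features most correlated with each. The Fbxo15 set is above 0.5 on all AA2G arrays, and the Pou5f1 set is below -0.1 on all of them.

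Morc1 is also the next gene after Dppa2 on chromosome 16. The order there in RefSeq is Nectin3, Dppa4, Dppa2, Morc1 and Trat1, counting protein-coding genes with a tested feature. In AA2G cells Morc1 was 3.8-fold higher, while Dppa2 and Dppa4 had values of -0.21 and -0.11. Nectin3, a cell adhesion gene, had 6.81, 6.71 and 6.67 in AA2G cells against 7.22, 7.0 and 7.0 in untreated cells, groups that did not overlap, at -0.35 ± 0.09 (SE, limma adjusted p = 0.184). Trat1 and Cd96, the outermost genes considered, were at -0.10 and 0.09 (adjusted p = 0.791 and 0.829).

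**Figure D4:**
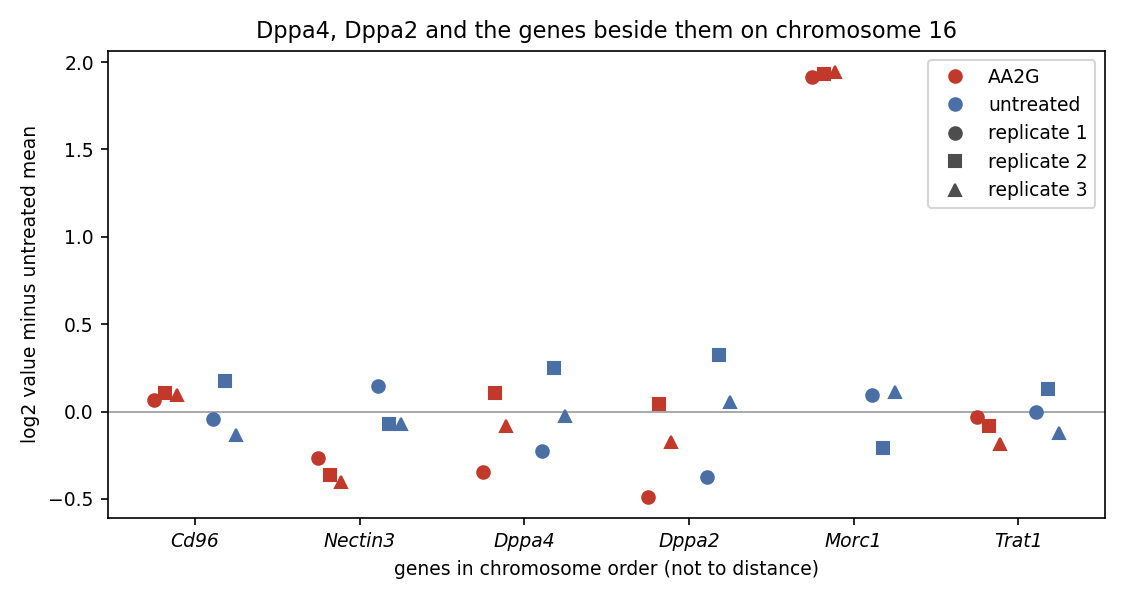
Log2 value minus the untreated mean on each array for 6 genes in their order on chromosome 16, AA2G in red and untreated in blue, with symbols for replicate numbers. Morc1 is near 1.9 on the 3 AA2G arrays, and both Dppa genes spread by replicate number in either group.

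Taking 2 such genes on each side of every member gave 36 neighbours that are not members. Of these, 2 rose, 0 fell and the median was 0.00, against 0.608% of all features called higher and 0.153% lower. The other riser was Gm17266, a predicted gene near Fbxo15, with 3.73, 4.18 and 3.91 in AA2G cells against 2.91, 2.91 and 3.13 in untreated cells (0.95 ± 0.12, limma adjusted p = 0.0144). Its levels are low and its call was lost without AA2G replicate 3 (adjusted p = 0.0644) and without untreated replicate 1 (0.0687), 2 (0.0624) or 3 (0.0501). The other genes beside Fbxo15 did not pass, with Cyb5a, of cytochrome b5, at -0.01, the mitochondrial import gene Timm21 at -0.26 and Neto1 at 0.05. Beside Pou5f1, Tcf19 was at 0.27 (adjusted p = 0.382). Beside Nanog, the growth factor gene Gdf3 was at -0.20, Dppa3 at -0.04 and the glucose transporter gene Slc2a3 at -0.01.

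Other regulators that work with Oct4, Sox2 and Nanog did not pass either. Of 22 measured, 0 were called, and the median was -0.08. By unadjusted p (under 0.05), 1 was higher and 2 were lower, against 4.66% and 5.06% of all features. Klf4, a reprogramming factor, stood at 9.04, 9.10 and 9.04 in AA2G cells against 9.34, 9.34 and 9.44 in untreated cells (-0.31 ± 0.07, limma adjusted p = 0.127). Its relative Klf2 had the opposite sign, with 9.76, 9.87 and 9.80 in AA2G cells against 9.58, 9.52 and 9.62 in untreated cells (0.24 ± 0.07, adjusted p = 0.272). Sall1, a relative of Sall4, was at -0.19 ± 0.07 (adjusted p = 0.402). Klf4, Klf2 and Sall1, named for the smallest unadjusted p of the list, each had groups that did not overlap. Among all features 7.21% did not overlap with AA2G above and 8.48% with AA2G below.

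Fbxo15 can be set beside 14 other known target genes of Oct4, Sox2 or Nanog. Of these 0 were called, with a median of -0.06 and a highest value of 0.05. By unadjusted p (under 0.05), 0 were higher and 3 were lower, against 4.66% and 5.06% of all features. Lefty1, a Nodal antagonist, stood at 7.45, 7.74 and 7.74 in AA2G cells against 8.56, 8.14 and 8.40 in untreated cells (-0.72 ± 0.13, limma adjusted p = 0.0577). Lefty1 passed in 4 of 15 alternatives, 1 of which left out untreated replicate 2 (adjusted p = 0.0449). Gdf3 (-0.20) and Phc1 (-0.17), a Polycomb subunit gene, had adjusted p of 0.486 and 0.492.

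Fbxo15 can also be set beside its own protein family. Of 35 other Fbxo genes 0 were called, and the median was 0.00. By unadjusted p (under 0.05), 2 were higher and 3 were lower, against 4.66% and 5.06% of all features. Their highest value was 0.30 for Fbxo2, an F-box protein that binds glycoproteins (limma adjusted p = 0.262), and their lowest was -0.52 for Fbxo16 (adjusted p = 0.131), followed by -0.29 for Fbxo43 (0.324). Of 6 measured SCF ligase genes 0 passed and 0 had an unadjusted p under 0.05, with values from -0.11 for the adaptor gene Skp1 to 0.11 for Nedd8, and Cand1 at -0.05. The second feature of Skp1 was at 0.13.

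Around Lin28a, 22 genes of the let-7 pathway were measured, of which 1 was called higher and 0 lower, with a median of -0.07. Over all features 0.608% were called higher and 0.153% lower. The riser was Hmga2, a chromatin protein gene and known let-7 target, with 7.31, 7.55 and 7.48 in AA2G cells against 6.85, 6.98 and 6.95 in untreated cells (0.52 ± 0.09, limma adjusted p = 0.0438). This call was lost without AA2G replicate 2 (adjusted p = 0.163) or 3 (0.191) and without untreated replicate 1 (0.126), 2 (0.101) or 3 (0.189). Lin28b, the paralogue of Lin28a, was at 6.27, 6.18 and 6.31 in AA2G cells against 6.74, 6.62 and 6.64 in untreated cells. The groups did not overlap, and the change of -0.41 ± 0.07 did not pass (adjusted p = 0.0657), though it passed in 3 of 15 alternatives. Arid3b was at -0.20 (adjusted p = 0.367) and its second feature at 0.01. Myc, in the same list, had a value of similar size to that of Hmga2 and the opposite sign, -0.51 (limma adjusted p = 0.645).

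The 10 measured let-7 genes are shown by 3 of their mature sequences, because all share the bases from 2 to 8, the seed, in capitals (RefSeq, GRCm38.p6, 5′ to 3′). Some other bases are shared as well.
let-7a-5p: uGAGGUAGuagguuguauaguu
let-7b-5p: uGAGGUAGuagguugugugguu
let-7g-5p: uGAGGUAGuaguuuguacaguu
All 10 genes carry 1 seed in 8 distinct mature sequences. Features of these genes had values from -0.22 for Mirlet7b to -0.02 for Mirlet7c-2, all 10 negative, against 52.3% of all features. The groups overlapped for each, 0 were called, and the smallest limma adjusted p was 0.61. By unadjusted p (under 0.05) there were 0, against 4.66% higher and 5.06% lower over all features. Whether these features read the hairpin or a longer transcript was not tested, and mature microRNA was not measured.

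The list of paralogues of the members also holds Dppa3 and Dppa5a, which share a name with Dppa2 and Dppa4 but are not their paralogues. This list gave 0 calls among 15 measured genes, with 1 higher and 5 lower by unadjusted p (under 0.05). Over all features 4.66% were higher and 5.06% lower by that measure, which is also the reference for the next 2 lists. Besides Lin28b the paralogue list included Sall3 at -0.55 ± 0.16 (limma adjusted p = 0.243) and Pou2f3 at 0.53 ± 0.17 (adjusted p = 0.315), whose groups overlapped. Of 13 NuRD subunit genes 0 passed, with 1 lower by unadjusted p (under 0.05), Mta3, at -0.27 ± 0.07 (adjusted p = 0.176), ahead of Gatad2b at -0.15 and Mta1 at -0.13. Of 7 measured genes of the 2-cell state, which Dppa2 and Dppa4 are known to switch on, 0 passed, 2 were higher by unadjusted p (under 0.05) and the median was 0.09. By smallest unadjusted p these were led by Duxf3 at 0.35, Zscan4e at 0.24 and Zfp352 at 0.28, all at low levels (adjusted p = 0.284, 0.464 and 0.559, in that order). Tcstv3 had a value of the opposite sign and similar size, -0.29 (adjusted p = 0.659).

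Some of the related lists had summed log2 levels that did not overlap between the groups, although with the exception of Hmga2 none of their genes passed. The sum over 14 Oct4, Sox2 or Nanog targets was 121.7 to 122.4 in AA2G arrays and 122.6 to 124.3 in untreated arrays. For the 22 let-7 pathway genes it was 132 to 133.4 in AA2G arrays and 134 to 134.9 in untreated arrays, and for the 13 NuRD genes it was 121.2 to 121.5 in AA2G arrays and 122 to 122.4 in untreated arrays. The 15 genes of the paralogue list, Dppa3 and Dppa5a included, gave 88.61 to 91.16 in AA2G arrays and 91.19 to 92.13 in untreated arrays. The 7 genes of the 2-cell state lay the other way, at 24.44 to 25.38 in AA2G arrays and 23.78 to 24.31 in untreated arrays. Sums overlapped for the network regulators, the Fbxo family and the SCF genes, and none of these sums was tested. Among single features 7.21% did not overlap with AA2G above and 8.48% with AA2G below, and no such share was computed for sums. Some lists also share genes, as the let-7 and paralogue lists share Lin28b, so their sums are not independent.

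Markers of other states and cell types did not pass. Over 6 lists with 70 measured genes, limma called 0 higher and 0 lower. By unadjusted p (under 0.05), 2 of the 70 were higher and 11 lower, against 4.66% and 5.06% of all features. List medians ran from -0.04 to 0.02, and the summed log2 level of each of these 6 lists overlapped between the groups. For trophoblast, the lineage that Oct4 is known to hold back, the sum over 13 genes was 70.52 to 72.21 in AA2G arrays and 72.15 to 73.12 in untreated arrays. Of its 13 values 7 were positive and 6 negative, with a median of 0.02 and a highest value of 0.25 for Ascl2. Its genes with the smallest unadjusted p had negative values that did not pass, with Krt18 at -0.43 (second feature 0.12), Rhox6 at -0.39 and Krt8 at -0.35 (adjusted p = 0.126, 0.212 and 0.0894, in that order). In the primed epiblast list Nodal was at -0.36 ± 0.07 (adjusted p = 0.0823), Dnmt3b at 0.35 and Sox3 at -0.12. Primitive endoderm genes pointed both ways, with Lama1 at 0.50, Sparc at 0.34 and Lamb1 at -0.48 (adjusted p = 0.0706, 0.0925 and 0.283, in that order). In the other lists the genes with the smallest unadjusted p were Mixl1 (-0.23), Mesp1 (-0.11) and Mesp2 (0.09) for mesoderm, where Eomes had a larger value (-0.30, adjusted p = 0.788), Sox1 (-0.19), Pax3 (0.12) and Map2 (-0.12) for neuroectoderm, and Ccn2 (-0.28, second feature 0.21), Dcn (-0.27) and Col1a1 (0.17) for fibroblasts.

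**Figure D5:**
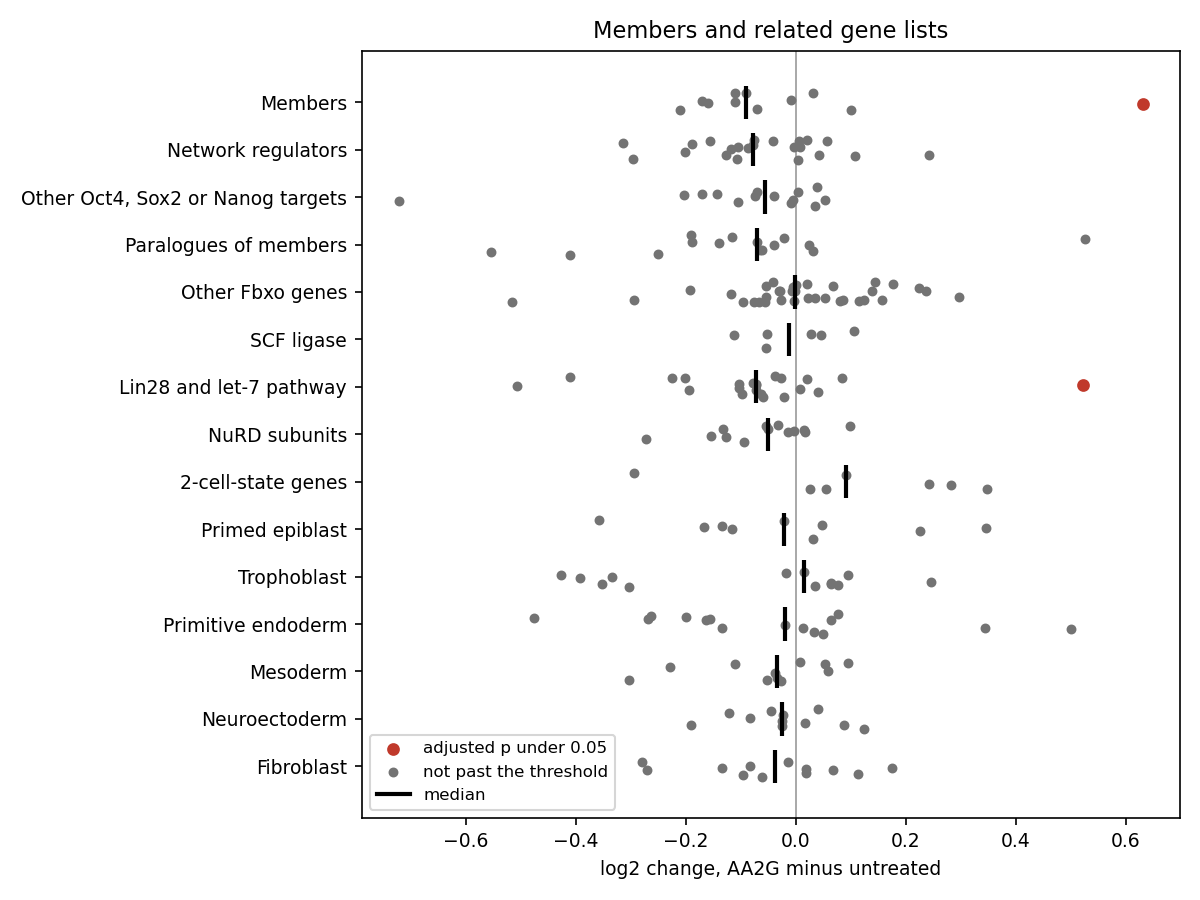
Log2 change, AA2G minus untreated, of the 11 member features and of each gene in 14 related lists (1 feature per gene), with bars for medians and red points for genes past the limma threshold. Fbxo15 (0.63) and Hmga2 (0.52) are the red points.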

How the data were processed

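Gene expression was measured in 6 samples of R1 mouse embryonic stem cells, 3 with AA2G and 3 untreated. Per the submitters' processing notes, the authors made the deposited log2 values in Affymetrix Expression Console with RMA, which corrects background, quantile-normalizes arrays and summarises probes. Not given in the sources used here are software versions, annotation release and genome build. Quantile normalization hides changes in total RNA per cell.

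Of 41345 features, 23521 have 1 symbol in the platform annotation, 1814 several and 16010 none listed. Those with 1 symbol entered a two-sided fit without covariates (lmFit and eBayes of limma 3.58.1, R 4.3.3), and p-values were adjusted over all of them. With 3 arrays a group, the smallest exact permutation p is 0.1. All p-values reflect only the spread between these cultures, and the number of arrays limits precision. Symbols naming a member occur on 0 features with several symbols. The RefSeq table (GRCm38.p6) served for names, chromosomes and gene order.

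Named genes were all member features, up to 3 genes per list with the smallest unadjusted p, all called genes of a list, and 5 features most correlated with Fbxo15 and with Pou5f1. Genes beside members, and a few list genes with larger values, were added after the values were seen. Lists used 1 feature per gene, the brightest. Members and lists were chosen with earlier results of these data known. Alternatives were a repeat of quantile normalization, a shift of arrays to 1 median, array weights, a trended robust prior, ordinary variances, a block for the replicate number, only features above percentile 40 (a mean of 4.99), all features, 1 feature per gene, and each array left out. The procedure was tested on simulated data.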

Additional observations from a re-analysis of the deposited data

How the results depend on the processing

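The call of Fbxo15 as higher and the count of 0 member features called lower were kept in all 15 alternatives, with the change of Fbxo15 between 0.60 and 0.64. Pou5f1 stayed between -0.18 and -0.15 and Nanog between -0.19 and -0.15, neither of them called in any (adjusted p of 0.102 to 0.723 and 0.129 to 0.714). Of 163 recomputed member values, 11 turned their sign, all of values not called and close to 0. Sox2 turned to 0.00 with repeated quantile normalization, 0.01 without AA2G replicate 3 and 0.08 without untreated replicate 1. Lin28a turned to 0.02 with array weights and 0.01 without untreated replicate 1, and Dppa4 to 0.01 without AA2G replicate 1 and 0.02 without untreated replicate 2. With 1 array left out, values ran from -0.10 to 0.08 for Sox2, -0.15 to 0.01 for Lin28a, -0.22 to 0.02 for Dppa4, -0.39 to -0.04 for Dppa2 and -0.22 to -0.01 for Utf1. The dim Sall4 feature turned to -0.02 without AA2G replicate 2, -0.03 without AA2G replicate 3, -0.01 without untreated replicate 1 and -0.02 without untreated replicate 3, within a range of -0.03 to 0.13. The background counts moved more. Against 143 features called higher and 36 lower, there were 303 and 193 with array weights, and 9 and 4 with ordinary variances. The lower count was 86 with brighter features only, 79 with a trended robust prior and 20 with all features. With 1 array left out, higher counts ran from 58 to 115 and lower counts from 6 to 17, with both minima without untreated replicate 3. The cause of these shifts was not tested.

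With the replicate number as a block, Fbxo15 was called (adjusted p = 0.0377), and 130 features were higher and 25 lower. Deviations of same-numbered arrays from their group means correlated at 0.2314, 0.2241 and 0.0169, a hint from the data and not the design. Each array correlated best with its own number, but for number 3 all values lay near 0 (-0.01279 to 0.0169). The hint thus rests on numbers 1 and 2. The block changed no call of a member, though it lowered the SE of Dppa2 to 0.07, against 0.19 without it (adjusted p = 0.33). It ended the calls of Oplah (adjusted p = 0.0661) and Cask (0.0755). With all features tested, the calls of Hmga2 (0.133), Gm17266 (0.0636), Oplah (0.0735) and Cask (0.0924) were lost, and with ordinary variances those of Morc1 (0.0587), Hmga2 (0.234), Gm17266 (0.234) and Cask (0.165).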
